A study of Olea europaea with 36 samples.

Results

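The 150 olive contigs described here had high signal in actively growing shoot tips of the variety Picual and much lower signal in its dormant shoot tips. They were taken from the 37449 contigs of a NimbleGen array (a contig is an assembled transcript sequence). A contig was considered when the mean log2 intensities of active Picual and Arbequina lay within 1 of each other, and those of Chiquitita and Arbosana did too, which 28504 contigs did. For each of these a score was taken, the lowest of the 3 active Picual arrays minus the highest of the 3 dormant Picual arrays on the log2 scale. The score was above 0 in 3701 of them, and in 5556 (14.8%) of all 37449 contigs. The 150 largest scores form the list, and Contig_44219 (CDC45) was left out by the rule. The members were chosen by the values of active and dormant Picual, and the difference between these is given only as a description.

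A shoot apical meristem holds the dividing cells from which leaves, internodes and branches form, and in trees it alternates between growth and dormancy. In a dormant meristem cell division and organ formation are held back until the shoot resumes growth. Genes of DNA replication are commonly less expressed in such tissue. CDC45 is one such gene, a subunit of the helicase that unwinds DNA at replication forks. The paper matches Contig_44219 to Arabidopsis CDC45 only as a putative ortholog, and CDC45 is used here as a name for that contig. The deposited files give the 150 contigs no gene name, and the olive gene table at hand (assembly O_europaea_v1) matched none of them, so they are described by number, without function or sequence.

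The study measured shoot tips of adult olive trees grown in the field, to look for genes behind tree architecture. Its paper places the harvest of actively growing shoots at the end of spring and gives no harvest time for dormant Picual. There were 36 arrays, 3 for each of 12 groups. The varieties were Picual, with active and with dormant meristems, and Arbequina, Chiquitita and Arbosana, with active meristems. All 7 seedling pools had active meristems. The pools SILe (short internodes), LILe (long internodes), SmaD (small trunk diameter) and LarD (large trunk diameter) came from the cross Picual x Arbequina. The pools ChiCa (Chiquitita-like canopy), simple branching and complex branching came from Chiquitita x Arbosana. Chiquitita itself descends from Picual and Arbequina. No group other than Picual was sampled dormant, so dormancy was seen in 1 genotype and on 3 arrays. Each pool mixed tissue of several seedlings chosen for a trait, so a pool value is an average over genotypes. The 3 replicates of a group were separately harvested shoots, and p-values measure only the spread between such samples. The labels of SmaD replicates 2 and 3 name short internodes in one field although their titles name the pool used here.

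Values were intensities normalized by the authors, from 6.74 to 62499, with array medians between 9.25 and 9.64 on the log2 scale. SILe replicate 3 stood apart before any comparison was made. Across all contigs its log2 values correlated at 0.842 and 0.839 with the other SILe arrays, which correlated at 0.978 with each other. Most counts over the list that rest on SILe are given with and without it. The remaining counts and the values of single contigs include it unless stated otherwise. In whole shoot tips, fewer cells of a type and less RNA per cell cannot be told apart.

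The label dormant could be checked only against CDC45. CDC45 had intensities of 1509, 1974 and 2424 on the active Picual arrays and of 529, 688 and 402 on the dormant ones. The groups did not overlap, and the ratio of geometric means was 3.67. All active Picual arrays lay above all dormant ones in 14.8% of all contigs. A low CDC45 level was not limited to dormant tissue. Actively growing Arbosana had 674, 407 and 701, and SILe replicate 3 had 352, so the check is a weak one. CDC45 would not have entered the list in any case, since its log2 mean in active Picual was 1.27 above that in Arbequina and its mean in Chiquitita was 1.53 above that in Arbosana.

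In active Picual the 150 contigs had geometric mean intensities from 181 to 29171, with a median of 2327. Of them 114 lay above the median of all contigs and 0 below their 25th percentile. In dormant Picual the same contigs ran from 19.0 to 6636, with a median of 229. The median contig stood at the percentile 72.0 of all contigs in active and 34.7 in dormant Picual. The signal fell without vanishing in many of them, since 46 of the 150 still lay above the median of all contigs in dormant Picual, 9 of these above their 75th percentile, and 57 lay below their 25th percentile. "Lost" therefore describes a fall in level and not, in general, an absent transcript.

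The ratio of active to dormant geometric means ran from 4.27 to 87.7, with a median of 8.49, and 84 contigs were over 8-fold and 24 over 16-fold. The median log2 difference over all contigs was 0.000711, and 7.15% of all contigs were called between active and dormant Picual by limma (adjusted p under 0.05 with a change of 2-fold or more), 4.57% as higher in active tissue. All 150 members were called by the same rule, a count the choice fixed. The highest dormant value came from replicate 2 in 78 members, from replicate 1 in 46 and from replicate 3 in 26. The lowest active value was spread more evenly, over replicate 1 in 55 members, replicate 2 in 32 and replicate 3 in 63.

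**Figure D1:**
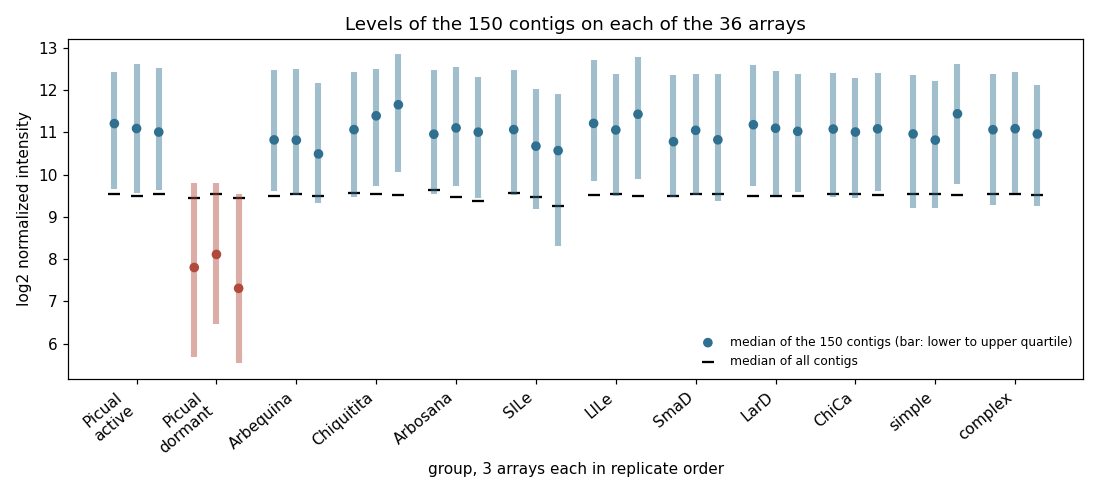
Log2 normalized intensity of the 150 contigs on each of the 36 arrays, 3 arrays per group. Points are medians over the 150 contigs, bars run from the lower to the upper quartile, and dashes give the median of all 37449 contigs. Only the 3 dormant Picual arrays, in red, have a median of the 150 contigs below the median of all contigs; the rule fixed this separation from active Picual.

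Contig_43326 had the largest score. Its intensity was 3880, 3540 and 5717 on the active Picual arrays and 37.7, 95.4 and 39.2 on the dormant ones, an 82.3-fold ratio of geometric means. Over the 30 arrays of the other groups its lowest intensity was 1007 (simple branching replicate 2), its median 2145 and its highest 4923 (Chiquitita replicate 3). Every one of these arrays was more than 10 times as bright as the brightest dormant array.

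Contig_31838 was next, with 5178, 8065 and 3908 in active and 52.1, 123 and 91.6 in dormant Picual, a 65.3-fold ratio. In the other 10 groups it was above its level in active Picual, with geometric mean intensities from 7547 in Arbequina to 11739 in LILe against 5465 in active Picual. Contig_21453 had the largest ratio of all, 87.7-fold, from intensities of 4272, 5506 and 4920 in active and 25.01, 255 and 26.9 in dormant Picual. Its dormant replicate 2 was about 10 times as bright as the other dormant arrays, so the size of that ratio depends on the replicate. Contig_40104 showed the same order, with 21.8, 133 and 66.1 in dormant against 3148, 2154 and 2124 in active Picual. Contig_21809, the fifth by score, changed less but evenly, from 6231, 5312 and 5138 in active to 227, 358 and 364 in dormant Picual.

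At the edge of the list the scores hardly differed. Contig_60755, Contig_66266 and Contig_47717 were the last taken, with scores of 1.90 each on the log2 scale. Contig_967, Contig_46624 and Contig_11038 were the first left out, at 1.90, 1.89 and 1.89. Contig_47717 had intensities of 2921, 2793 and 2923 in active and 676, 750 and 603 in dormant Picual, a 4.27-fold ratio, so membership at the edge marks no break in the data.

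The dependence of the list on single arrays was described by leaving out 1 Picual array at a time and choosing 150 contigs anew. With an active array left out, the new list shared 126, 128 or 115 contigs with the full one, and in all 150 the left-out array lay above every dormant array. Among the contigs that met the conditions that share was 26.6%, 25.9% and 31.5%. With a dormant array left out the lists shared fewer contigs, 86 without replicate 1, 95 without replicate 2 and 137 without replicate 3. The left-out dormant array lay below every active array in 136 of 150 contigs for replicate 1 and in 150 of 150 for replicates 2 and 3, against 31.3%, 27.2% and 35.7% of the contigs that met the conditions. Its level was less low than that of the arrays that chose the list for replicates 1 and 2, but not for replicate 3. On a scale with 0 at the dormant and 1 at the active mean of the choosing arrays, the left-out dormant array had a median position of 0.32 for replicate 1, 0.29 for replicate 2 and -0.08 for replicate 3. The left-out dormant array was nearer to the active mean in 52 of 150 contigs for replicate 1, 27 for replicate 2 and 2 for replicate 3. The arrays it was set against had chosen the list, so these values are a description and no support for the difference.

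The same scale was used for the other 10 groups, now with the means of all 3 dormant arrays (0) and all 3 active arrays (1) of Picual as its ends. The median position of the 150 contigs was 0.87 in SILe, 0.89 in Arbequina, 0.91 in SmaD, 0.93 in Arbosana, 0.93 in complex branching, 0.95 in ChiCa, 0.96 in LarD, 0.97 in simple branching, 1.01 in LILe and 1.03 in Chiquitita. Groups next to each other in this order differed by at most 0.04, in each case less than the larger SD of their array medians, which were between 0.015 and 0.083. So the typical contig of the list stood close to its active Picual level in every other group, and the order of neighbouring groups was not resolved. Arbequina was held near active Picual by the rule. Chiquitita and Arbosana were tied only to each other, and the 7 pools entered no condition.

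**Figure D2:**
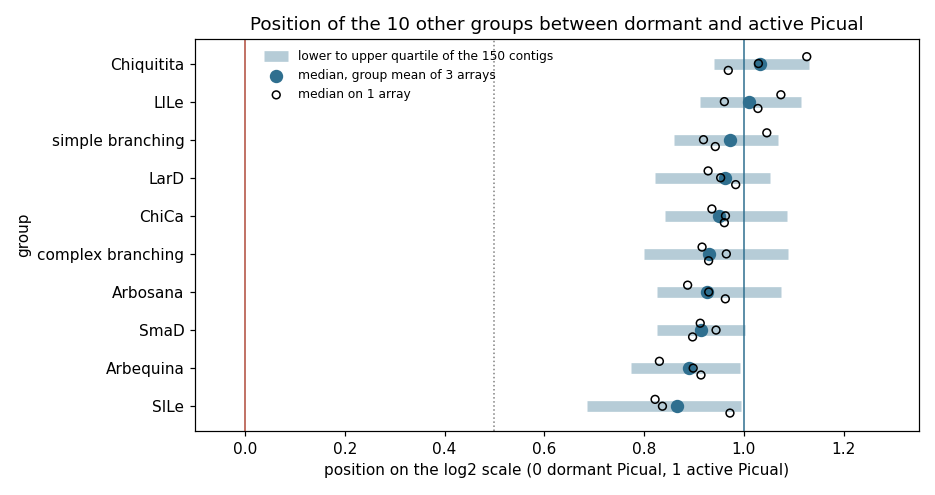
Position of the 150 contigs in the 10 other groups on the log2 scale from dormant Picual (0, red line) to active Picual (1, blue line), with halfway dotted. Filled points are the medians of the group means, thick bars the lower to upper quartiles over contigs, and open circles the medians on single arrays; all medians lie between 0.82 and 1.13.

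Counted contig by contig, the number nearer to dormant than to active Picual was 0 of 150 in Arbequina, 2 in Chiquitita, 2 in Arbosana, 4 in simple branching, 7 in LILe, 8 in ChiCa, 9 in SmaD, 9 in LarD, 11 in complex branching and 19 in SILe. Without replicate 3 it was 5 in SILe, whose median position was then 0.90. In 121 of the 150 contigs all 10 groups were nearer to active Picual, and in 130 when SILe was taken without replicate 3.

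The arrays of the other groups also rarely overlapped with the dormant ones. All 3 arrays lay above all 3 dormant arrays in 150 members in Arbequina (20.4% of all contigs), 149 in Chiquitita (20.1%) and 150 in Arbosana (15.2%). For the Picual x Arbequina pools the counts were 120 in SILe (12.4%), 147 in LILe (17.3%), 145 in SmaD (16.7%) and 147 in LarD (16.3%). For the Chiquitita x Arbosana pools they were 146 in ChiCa (20%), 147 in simple branching (17.2%) and 147 in complex branching (17.4%). All 30 arrays lay above the highest dormant array in 115 members, against 4.24% of all contigs. Without SILe replicate 3 the remaining 29 arrays did so in 140 members, against 5.25%. These counts share the dormant arrays with the rule and carry no test.

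SILe replicate 3 held most of the exceptions. In it 48 members were nearer to dormant Picual, of which 2 were so in SILe replicate 1 and 5 in replicate 2. In total 3 members were nearer to dormant Picual in replicate 1 and 6 in replicate 2. The position of the members also spread more widely in SILe replicate 3, with quartiles of 0.37 and 1.11, than in replicate 1 (0.87 and 1.05) or replicate 2 (0.73 and 0.96). In it 52 members lay above their active Picual mean. Its median over all contigs, 9.25 on the log2 scale, was the lowest of the 36 arrays, against 9.56 and 9.47 on the other SILe arrays. CDC45 was at 352 in this array, under its dormant Picual values, and at 1975 and 1327 in SILe replicates 1 and 2.

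Contig_13562, Contig_54807 and Contig_38378 were the members whose lowest position over the 10 groups was highest, in each above the active Picual mean. Contig_13562 had intensities of 8351, 6474 and 4322 in active and 629, 1087 and 969 in dormant Picual. On the 30 other arrays it ran from 6710 (SILe replicate 2) over a median of 9659 to 15460 (LILe replicate 3). No group mean fell under a position of 1.16, so each of the 10 groups stood above active Picual. The lowest group means of Contig_54807 and Contig_38378 were at 1.12 and 1.09.

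The least variable member was Contig_62956, with an SD of 0.14 between its 10 group means on the log2 scale. Its intensity was 12862, 14327 and 10840 in active and 1637, 1814 and 1699 in dormant Picual. On the other 30 arrays it lay between 7260 (Chiquitita replicate 3) and 17066 (simple branching replicate 2), with a median of 11776. Contig_45553 and Contig_51116 followed, with an SD of 0.14 and 0.15 and lowest intensities of 9745 and 15873 over the same arrays. These abundant contigs differed little between varieties and pools while their dormant Picual arrays were lower by 6.38-fold and 4.40-fold.

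At the other end, 29 members were nearer to dormant Picual in at least 1 of the 10 groups. In 14 of them this was 1 group alone, and in 10 of the 14 that group was SILe, with its replicate 3 included. In 5 members it was 5 or more groups, namely Contig_12956, Contig_9525, Contig_48643, Contig_31985 and Contig_22681 (the last 2 were named after their values were seen).

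Contig_12956 was nearer to active Picual in 1 group of 10, Arbequina. It had intensities of 1114, 1344 and 1819 in active and 172, 191 and 110 in dormant Picual, and of 777, 746 and 908 in Arbequina. In the 7 pools its geometric means ran from 121 in LarD to 282 in simple branching, and in Chiquitita it was 244. The geometric mean in dormant Picual was 154, so the actively growing pools were near that level, the pools of the cross Picual x Arbequina included. In simple branching its arrays were spread widely, at 103, 290.2 and 750.2, and in Arbosana at 463, 200.1 and 705.

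Contig_9525 had 358, 368 and 376 in active and 61.7, 65.0 and 34.4 in dormant Picual. It was low in the Picual x Arbequina pools, with 67.8, 89.2 and 74.99 in SmaD and 45.6, 112 and 50.9 in LarD. Complex branching lay there too, at 75.5, 74.5 and 72.7, just above all dormant arrays, while Arbosana had 364, 228 and 239. The varieties stood nearer to active Picual and most pools nearer to dormant Picual.

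The seedling pools offered comparisons that the rule had not used. Between pairs of pools within a cross 0 members passed both limits of limma's test, an adjusted p under 0.05 and a change of 2-fold or more. That held for SILe against LILe (0.00801% of all contigs called), SmaD against LarD (0.0134%), complex against simple branching (0.0561%), ChiCa against simple branching (0.0107%) and ChiCa against complex branching (0.0668%). At an unadjusted p under 0.05 the limma counts were 13, 14, 25, 4 and 15 of 150 members in the same order, against 1008, 4910, 2665, 1637 and 2410 of all 37449 contigs. The methods' t-test (2-tailed, equal variances, no adjustment, at least 2-fold) called 2, 2, 5, 0 and 4 members, against 255, 1015, 388, 183 and 600 of all contigs. With array weights, which give arrays that fit their group poorly less influence, 15 members were called between SmaD and LarD, where 3641 of all contigs were called, and 4 between ChiCa and complex branching, where 488 were.

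The members nevertheless lay on one side between the internode length pools. In 134 of 150 the mean was lower in SILe than in LILe, against 52.4% of all contigs and 52.0% of those that met the conditions. Their median log2 difference, SILe minus LILe, was -0.45 (quartiles -0.78 and -0.23), and that of all contigs was -0.02. Without SILe replicate 3 the median was -0.35 and 116 of 150 members were lower in SILe, against 47.9% of all contigs. The differences were small for single contigs. A fall of at least 2-fold in SILe was seen in 26 members with all arrays, against 6.24% of all contigs. Without SILe replicate 3 it was seen in 2 members, and the share over all contigs was not computed there. All 3 SILe arrays lay below all 3 LILe arrays in 25 members (3.05% of all contigs), and SILe replicates 1 and 2 did so in 44 members (11.3%). Both pools were labelled active. CDC45 was at 1975, 1327 and 352 in SILe and at 1616, 1630.1 and 1536 in LILe, and the part of such differences between these arrays in the result was not tested. No test was made over the list.

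In the other pairs the members lay closer to 0. The members' median log2 difference was -0.09 for SmaD minus LarD (0.03 over all contigs), -0.02 for complex minus simple branching (-0.01), -0.03 for ChiCa minus simple branching (0.01) and 0.04 for ChiCa minus complex branching (0.02). The members below 0 numbered 92, 81, 81 and 64 of 150 in these pairs, against 47.0%, 51.0%, 49.0% and 47.4% of all contigs.

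**Figure D3:**
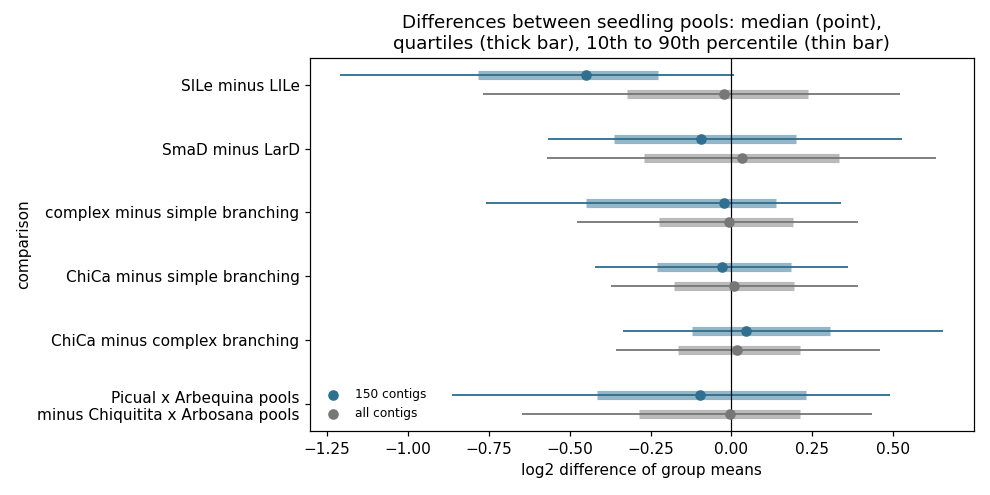
Log2 difference of group means between seedling pools for the 150 contigs (blue) and for all contigs (grey). Points are medians, thick bars quartiles and thin bars the 10th to 90th percentiles over contigs; the 150 contigs lie lower in SILe than in LILe, with a median of -0.45 against -0.02 for all contigs.

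Across all 7 pools together, 12 of the 150 members differed (limma F test, adjusted p under 0.05, highest and lowest pool mean at least 2-fold apart), against 3% of all contigs and 1.82% of those that met the conditions. In 8 of the 12 SILe, with replicate 3 included, was the lowest pool, and in the other 4 complex branching was. The lowest pool was not tallied without SILe replicate 3 or over all called contigs, so nothing is read from it. The number of members called was 23 without SILe replicate 3, where 2140 contigs were called in all. It was 18 without SILe replicate 1 (1631 in all) and 17 without simple branching replicate 3 (1609 in all). It was 7 without ChiCa replicate 1, ChiCa replicate 2 or complex branching replicate 1 (639, 663 and 711 in all), and with array weights it was 53, where 9878 contigs were called in all.

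Of the 4 members with the smallest p, Contig_33364 and Contig_38000 stayed on the active side of the scale, and Contig_67187 and Contig_32631 came near the dormant level in some pools. Contig_33364 had intensities of 878, 697 and 818 in SILe and of 2232, 1899 and 2695 in complex branching, a span of 1.505 on the log2 scale between the pool means (F test of limma, adjusted p = 0.00133). All pools stayed far above dormant Picual, where it was 23.2, 106 and 130. Contig_38000 ran the opposite way, with 3702, 2524 and 3782 in SILe and 1331, 1386 and 1102 in complex branching, a span of 1.37 (F test of limma, adjusted p = 0.00186).

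Contig_67187 stood nearer to dormant Picual in the Chiquitita x Arbosana pools. It had 1479, 1520 and 1434 in active and 379, 287 and 258 in dormant Picual. The intensities were 495, 422 and 482 in ChiCa and 466, 405 and 404 in complex branching, against 1233, 1250 and 933 in LILe. All arrays of these pools stayed above the dormant ones, and the span between LILe and complex branching was 1.41 on the log2 scale (F test of limma, adjusted p = 0.00486).

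Between the crosses, the mean of the 4 Picual x Arbequina pools was set against that of the 3 Chiquitita x Arbosana pools. Of the 150 members 10 were called (limma, adjusted p under 0.05 with a change of 2-fold or more), against 3.15% of all contigs and 1.56% of those that met the conditions. They were 3 that were higher in the Picual x Arbequina pools (1.49% of all contigs) and 7 that were lower (1.66%). The cross and the traits for which its seedlings were chosen cannot be told apart. The count was 16 without SILe replicate 1, where 1970 contigs were called in all, and 7 without SILe replicate 3, where 1007 were. In all 7 members were called both here and among the 7 pools, 15 in either and 135 in neither.

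Contig_46881 was the member with the largest difference between the crosses. Its intensity was 541, 506 and 446 in active and 37.2, 83.1 and 21.8 in dormant Picual. In the Chiquitita x Arbosana pools it was at 90.5, 62.4 and 61.2 in ChiCa and at 34.4, 46.4 and 55.7 in complex branching. Each complex branching array lay below the highest dormant one. Simple branching was split, with 63.3 and 70.6 on replicates 1 and 2 and 572 on replicate 3. The Picual x Arbequina pools all lay higher, from 229 (LarD replicate 1) to 665 (LarD replicate 2). The log2 difference between the crosses was 2.30 (SE 0.33, limma adjusted p = 0.000255), and without simple branching replicate 3 it was 2.64. The parents of the low pools, Chiquitita (114, 250 and 501) and Arbosana (595, 392 and 337), were not low to the same degree.

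Contig_48643 was also low in the Chiquitita x Arbosana pools, but it was nearer to dormant Picual in 6 of the 10 groups. It had 9622, 10620 and 10900 in active and 973, 997 and 773 in dormant Picual, and reached 15212, 13054 and 20441 in Arbequina. In complex branching it was at 709, 542 and 604, below every dormant array. Simple branching was again split, with 477, 1347 and 7524. Outside that cross its position was 0.26 in LILe, 0.39 in SmaD, 0.50 in LarD, 0.55 in SILe and 0.44 in Chiquitita, with LILe level with simple branching, which was also at 0.26. The log2 difference between the crosses was 1.33 (SE 0.35, limma adjusted p = 0.0209), and without simple branching replicate 3 it was 1.68. Contig_46881 and Contig_48643 were also the members with the largest SD between the 10 group means, 1.30 and 1.27 on the log2 scale.

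Simple branching replicate 3 was higher in other members too. In 16 of the 150 it was at least 2-fold above both other arrays of its group, against 3.99% of all contigs, and in no member at least 2-fold below both. Its correlations with the other simple branching arrays, 0.968 and 0.962, were close to the 0.974 between those. The part of this array in the results was tested only by leaving it out.

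Contig_32631 differed in the other direction. It had 240.0, 166 and 150.02 in active and 39.8, 31.1 and 26.1 in dormant Picual. The Picual x Arbequina pools were near the dormant level, with 42.4, 67.6 and 19.5 in SILe and 43.2, 62.8 and 33.6 in LarD. ChiCa (251, 231 and 207) and simple branching (204, 210.3 and 277) were at the active level. Complex branching was lower, though still nearer to active than to dormant Picual. Its log2 difference, complex minus simple branching, was -1.14, and ChiCa minus complex branching was 1.15, neither of them called. The log2 difference between the crosses was -1.86 (SE 0.25, limma adjusted p = 0.00017). Both parents of the low pools had higher signal than the pools' means, Arbequina with 118, 69.8 and 147.6 and active Picual as above.

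Contig_35252 was also lower in the Picual x Arbequina pools, with a log2 difference of -1.78 (SE 0.34, limma adjusted p = 0.00281). Its LarD arrays were at 58.6, 100.04 and 44.99 and its complex branching arrays at 463, 327 and 409, with 184, 242 and 612 in active and 13.6, 32.5 and 15.6 in dormant Picual. SILe replicate 3 was at 16.7 and the other SILe arrays at 168 and 78.3, and without replicate 3 the difference was -1.55. The other members called were Contig_67187 (higher, 1.01) and Contig_21453, Contig_32572, Contig_65850, Contig_31061 and Contig_31985 (lower, from -1.08 to -1.26 on the log2 scale), named to account for the count and not by the rule, apart from Contig_67187 and Contig_21453.

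**Figure D4:**
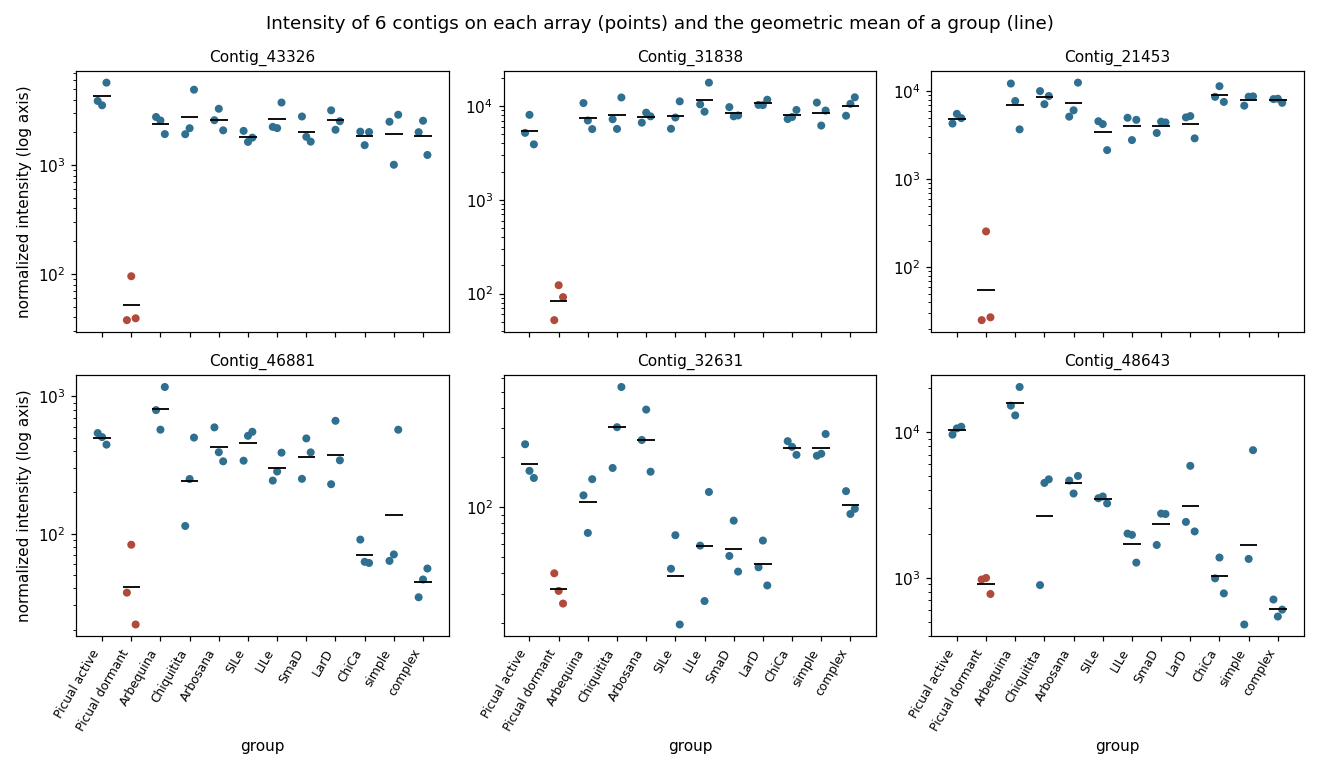
Normalized intensity of 6 contigs on each array (points, log axis) with the geometric mean of each group (line); dormant Picual is in red. The upper row holds the 3 largest scores, where only dormant Picual is low; in the lower row Contig_46881 is also low in ChiCa and complex branching, Contig_32631 in the Picual x Arbequina pools, and Contig_48643 in ChiCa, complex and simple branching, LILe, SmaD and Chiquitita.

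Replicate spread was ordinary for these contigs. The median SD between replicates was 0.32 on the log2 scale for the members and 0.32 for all contigs over the 10 other groups. In dormant Picual the members' median SD was larger, 0.56 against 0.42 for all contigs. Between the 10 group means the members' median SD was 0.40, against 0.33 for all contigs and 0.28 for those that met the conditions, and 4 members exceeded 1.

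The members did not vary as 1 block across the other groups. Over the 30 arrays the median Pearson's r between pairs of members was 0.16 (11175 pairs), with 16.7% of pairs above 0.5 and 33.5% below 0. The arrays share groups and normalization, so these values describe the arrays and carry no test. They were not computed for pairs of other contigs, so whether the members vary together more or less than those cannot be told. High signal in active Picual and low signal in dormant Picual was what the members shared by the rule. Over the other groups most pairs of members were not above an r of 0.5.

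Likeness to CDC45 was set beside this because the gene to which that contig was putatively matched acts in DNA replication. CDC45 took a position of 0.07 in Arbosana, 0.32 in Arbequina and 0.47 in SILe on its own scale from dormant (0) to active Picual (1), and of 1.13 in complex branching. The rule kept the members' means in Arbequina near active Picual and those in Arbosana near Chiquitita. CDC45 did not meet these conditions, so its lower positions in these varieties were not set against the members' positions. Over the 30 arrays the median r between a member and CDC45 was 0.14, against 0.06 for all contigs. An r above 0.5 was seen in 31 members (20.7%, against 15.9% of all contigs) and an r below -0.5 in 6 (4.0%, against 9.95%). Without SILe replicate 3 the number above 0.5 was 16 of 150, a lower share than the 12.6% of all contigs. The higher share of members above 0.5 therefore depended on that array.

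The members most like CDC45 were Contig_65750, Contig_36709 and Contig_28327, with r of 0.80, 0.79 and 0.77, and of 0.75, 0.85 and 0.70 without SILe replicate 3. Contig_65750 had 313, 398 and 391 in active and 83.3, 70.7 and 30.7 in dormant Picual, and 379, 365 and 96.8 in SILe, so it shared the low value of CDC45 on SILe replicate 3. The least like were Contig_46881, Contig_65182 and Contig_48643, with r of -0.66, -0.60 and -0.59. Of the 14 contigs the study named, 0 met the conditions of the rule and 2 had a score above 0, CDC45 at 1.13 and Contig_12843 at 1.31. The paper reports these contigs as different between Chiquitita and Arbosana, while the rule kept contigs alike in those varieties. Their absence from the list was therefore largely fixed in advance, and nothing is read from it.

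**Figure D5:**
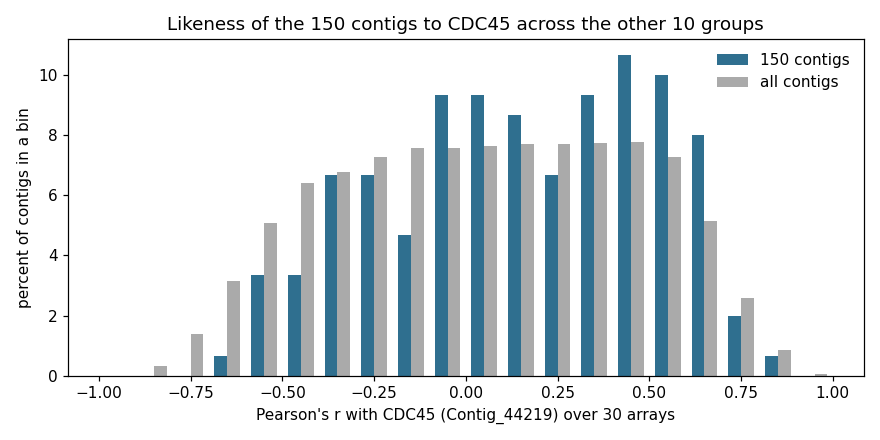
Pearson's r with CDC45 (Contig_44219) over the 30 arrays of the 10 other groups, in bins along the x axis, with the percent of the 150 contigs (blue) and of all contigs (grey) in each bin on the y axis. Both distributions are broad, with medians of 0.14 and 0.06.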

How the data were processed

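The authors hybridized RNA from olive shoot tips to 60-mer NimbleGen arrays and normalized them, with RMA per the submitters' processing notes (version not given in the sources used here). The deposited table gives a linear normalized intensity for each contig on each array, which was converted to log2. The signal before normalization was not used here. Neither were 36 columns of a second table, whose names match no sample. An array has no read depth, and 3 arrays a group limit the precision.

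Pools were compared with limma 3.58.1 (R 4.3.3; lmFit, eBayes). SILe and LILe, and SmaD and LarD, were each fitted with Chiquitita, the 3 Chiquitita x Arbosana pools together, and the crosses and the F test on all 21 pool arrays, without a filter on dim contigs or covariates, and p-values were adjusted by Benjamini and Hochberg over all 37449 contigs. Scripts were tested on simulated data. Other work used Python 3.11.15, numpy 2.4.6, pandas 2.3.3 and matplotlib 3.10.9.

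Members and lists were chosen with earlier results of these data known. Named contigs were the 5 largest scores and the 3 on each side of the edge; the 4 smallest p among pools; up to 2 called members per direction and comparison; the 3 extremes of position, of spread and of r with CDC45; and CDC45 itself. Alternatives were other normalizations, choices of the list, filters, variance models, array weights, a replicate block, a fit of all arrays, the methods' t-test and each replicate left out.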

Additional observations from a re-analysis of the deposited data

How the results depend on the processing

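Choosing the list another way kept 97 of the 150 contigs with the score taken from group means and 67 with no conditions on like levels. Leaving out 1 Picual array kept 86 to 137. On linear intensities the median positions were lower, at 0.73 in Arbequina, 0.74 in SILe, 0.80 in SmaD, 0.83 in complex branching, 0.87 in Arbosana, 0.89 in ChiCa and 0.91 in LarD. Taken as the mean over members LarD stood at 0.92, and with the list chosen by group means Arbosana stood at 0.98 and ChiCa at 0.97. Leaving out 1 array of a group gave positions of 0.87 to 0.91 in Arbequina, 1.01 to 1.06 in Chiquitita, 0.92 to 0.94 in Arbosana, 0.81 to 0.90 in SILe, 0.99 to 1.05 in LILe, 0.90 to 0.93 in SmaD, 0.95 to 0.98 in LarD, 0.95 to 0.96 in ChiCa, 0.93 to 0.99 in simple branching and 0.92 to 0.95 in complex branching.

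No pair of pools had a called member under any array left out (0 to 0 in each of the 5 pairs). The methods' t-test called 2 members for SILe and LILe, 2 for SmaD and LarD, 5 for complex and simple branching and 4 for ChiCa and complex branching, and array weights called 15 for SmaD and LarD and 4 for ChiCa and complex branching. Between the crosses 7 to 16 members were called with 1 array left out. Among the 7 pools 7 to 23 were, and 53 with array weights. For the t-test, the array weights and the ends of these ranges, the numbers of all contigs called stand beside the same counts above. The median log2 difference SILe minus LILe was between -0.55 and -0.35 with 1 array left out and -0.29 with array weights. The median differences of complex minus simple branching (-0.16 to 0.07), ChiCa minus simple branching (-0.11 to 0.08) and ChiCa minus complex branching (-0.0041 to 0.09) had no fixed side, those of SmaD minus LarD (-0.20 to -0.02) and of the crosses (-0.13 to -0.03) did. The cause of these changes was not tested.

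Replicate numbers did not pair the arrays throughout. Deviations from the group means correlated at -0.21, 0.04 and -0.02 for SILe and LILe and at 0.46, 0.49 and 0.08 for SmaD and LarD. They did so at -0.03, -0.35 and 0.37 for complex and simple branching. The values were -0.04, 0.48 and 0.03 for ChiCa and simple branching and 0.06, -0.48 and -0.39 for ChiCa and complex branching. For SmaD replicates 1 and 2 the LarD array that matched best had the same number, so pairing in part cannot be set aside there. With the replicate number as a block 10 members were called between the crosses, 11 among the 7 pools and 0 in each pair. The share of all contigs called in these fits is not given here, so nothing is read from the counts. The 10 calls between the crosses kept their direction under all alternatives run. With the 12 among the pools, calls of single contigs were kept in 541 of 613 fits. They were lost most often for Contig_53417 (20 of 28) and Contig_35252 (16 of 28) among the pools and for Contig_67187 (12 of 28) between the crosses. The median r with CDC45 was 0.14 as Spearman's rho and 0.14 without SILe replicate 3. The counts without SILe replicate 3 for positions, overlap, 2-fold falls and r above 0.5 were added after the data had been seen.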
